A study of Mus musculus with 6 samples.

Results

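The 10 genes described here are switched on by ERK signalling and either restrain it or carry it further: *Spry1*, *Spry2*, *Spry4*, *Spred1*, *Spred2*, *Dusp4*, *Dusp5*, *Dusp6*, *Etv4* and *Etv5*. A locus was taken as the gene body plus 50 kb on each side in GENCODE M21 (GRCm38), and every called peak that overlapped a locus was kept. The 10 loci held 366 of the 439465 peaks of the 6 lists, which merged into 96 of 120143 regions. The assay was ATAC-seq, which marks accessible DNA by the insertion of adapters, and the cells were neural stem cells grown from the subependymal zone (SEZ) of mice aged 10 weeks. In both states the cells lacked *Srr2*, a *Sox2* enhancer removed with CRISPR-Cas9 (*Srr2* del/del). Wild-type cultures were not analysed here.

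Proliferating cultures (PROLIF, 3 libraries, replicates 1, 2 and 4) had 2 days in vitro (DIV). Their neurosphere medium held 20 ng/ml EGF and 10 ng/ml FGF, and for adherent assays cells were seeded on Matrigel with FGF. The text of the series gives 3 DIV neurospheres for this state instead, and which of these conditions the libraries had was not settled here. Early differentiating cultures (DIFF, 3 libraries, replicates 1, 2 and 4) had 2 DIV on Matrigel with FGF and then 1 day after the mitogens were taken away, in medium with 2% fetal bovine serum. Mitogen removal and the addition of serum cannot be told apart in this comparison. In such bulk cultures, a change in the share of a cell type and a change within cells cannot be told apart either.

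EGF and FGF receptors signal through RAS, RAF and MEK to the kinase ERK. Active ERK turns on its own inhibitors. Sprouty and Spred proteins act between the receptor and RAF, and the dual-specificity phosphatases DUSP4, DUSP5 and DUSP6 remove the activating phosphates from ERK. *Etv4* and *Etv5* encode ETS transcription factors that are induced by FGF signalling and pass the response on to target genes. Because their transcription follows ERK activity, these genes are common readouts of mitogen signalling. Capicua, a repressor that ERK inactivates, is known to hold several of them off.

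All 10 genes had a promoter peak in all 6 libraries. Of the 96 regions, 0 had a peak in all 3 PROLIF and no DIFF library, and 1, a weak region upstream of *Spry4*, had one in all 3 DIFF and no PROLIF library. Over all regions these shares were also small, at 1.78% and 3.47%. Of the 37 regions with a peak in every library, 7 passed a test of strength. At *Spry2*, *Dusp6* and *Spry4*, 5 were stronger in PROLIF, by 1.43- to 1.87-fold (13.5%, against 8.86% of all such regions). The *Spry4* promoter and a region far downstream of *Spred1* were stronger in DIFF by 1.57- and 1.58-fold (5.41%, against 6.89%). No region at *Spry1*, *Spred2*, *Dusp4*, *Dusp5*, *Etv4* or *Etv5* passed.

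Sequences are shown for the regions that passed, because they are the stretches on which the comparison of the states rests, except those at *Spry4*. Each is the GRCm38.p6 reference for 100 bases on either side of the summit, read along the strand of the gene and counted from its 5′ end. Capitals mark matches, on either strand, to 9 fixed motifs: ETS (CCGGAAGT, ACCGGAAG or CAGGAAGT), Capicua (TGAATGAA or TGAATGGA), AP-1 (TGAGTCA or TGACTCA), CRE (TGACGTCA), the CArG box of serum response factor, TEAD (ACATTCCA), SOX (ACAANG, N being any base), E-box (CAGCTG or CAGATG) and NFI (TTGGCA). The first is on the minus strand at chr14:105851478-105851678, the next on the minus strand at chr14:105922996-105923196, the third on the plus strand at chr2:117231314-117231514, and the last pair on the plus strand at chr10:99261752-99261952 and chr10:99285817-99286017.
*Spry2*, 45.2 kb downstream: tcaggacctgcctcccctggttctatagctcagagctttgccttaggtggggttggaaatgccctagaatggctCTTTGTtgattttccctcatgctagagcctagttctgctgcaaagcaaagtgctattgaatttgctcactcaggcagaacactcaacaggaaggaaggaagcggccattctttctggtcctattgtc
*Spry2*, 26.3 kb upstream: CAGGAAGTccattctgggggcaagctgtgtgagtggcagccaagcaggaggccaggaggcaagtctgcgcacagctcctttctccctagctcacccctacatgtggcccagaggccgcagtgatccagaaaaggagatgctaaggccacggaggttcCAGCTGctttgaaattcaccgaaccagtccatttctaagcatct
*Spred1*, 110 kb downstream: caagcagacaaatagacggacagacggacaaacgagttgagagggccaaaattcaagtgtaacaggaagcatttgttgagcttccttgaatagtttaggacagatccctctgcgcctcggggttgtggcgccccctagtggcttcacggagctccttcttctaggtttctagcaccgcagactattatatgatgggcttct
*Dusp6*, 1.38 kb upstream: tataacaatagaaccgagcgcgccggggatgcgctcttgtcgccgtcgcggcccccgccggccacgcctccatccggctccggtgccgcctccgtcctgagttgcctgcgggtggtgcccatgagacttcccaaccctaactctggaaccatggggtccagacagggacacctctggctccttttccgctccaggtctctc
*Dusp6*, 22.7 kb downstream: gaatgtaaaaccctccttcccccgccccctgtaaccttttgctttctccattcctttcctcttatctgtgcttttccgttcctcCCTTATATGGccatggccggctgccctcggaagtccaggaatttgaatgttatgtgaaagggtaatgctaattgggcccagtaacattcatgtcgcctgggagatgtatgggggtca

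The *Spry2* region downstream held 1 SOX match and the upstream one held 1 ETS match at its edge and 1 E-box. The distal *Dusp6* region held 1 CArG box, CCTTATATGG, near its centre. No match was found in the *Spred1* region or in the *Dusp6* region close to the start site. A match is a string of letters and not a bound site.

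Promoters are shown for the strongest member of the Sprouty family and for the ERK phosphatases for which RefSeq gave one around the start site (GRCm38.p6). They lie at chr14:105896770-105897069 on the minus strand for *Spry2*, at chr19:53528895-53529194 on the plus strand for *Dusp5* and at chr10:99262981-99263280 on the plus strand for *Dusp6*.
*Spry2*: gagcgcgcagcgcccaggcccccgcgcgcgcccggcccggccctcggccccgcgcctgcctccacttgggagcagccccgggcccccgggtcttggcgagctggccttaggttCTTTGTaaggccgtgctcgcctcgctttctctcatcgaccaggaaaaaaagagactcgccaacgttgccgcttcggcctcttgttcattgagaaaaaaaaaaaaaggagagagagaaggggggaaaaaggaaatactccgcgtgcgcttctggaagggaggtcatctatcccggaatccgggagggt
*Dusp5*: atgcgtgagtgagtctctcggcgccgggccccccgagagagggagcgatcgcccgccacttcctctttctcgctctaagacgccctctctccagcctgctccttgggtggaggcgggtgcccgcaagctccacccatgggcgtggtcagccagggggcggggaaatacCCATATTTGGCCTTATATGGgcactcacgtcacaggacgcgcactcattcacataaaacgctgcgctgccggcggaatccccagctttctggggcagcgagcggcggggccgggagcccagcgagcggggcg
*Dusp6*: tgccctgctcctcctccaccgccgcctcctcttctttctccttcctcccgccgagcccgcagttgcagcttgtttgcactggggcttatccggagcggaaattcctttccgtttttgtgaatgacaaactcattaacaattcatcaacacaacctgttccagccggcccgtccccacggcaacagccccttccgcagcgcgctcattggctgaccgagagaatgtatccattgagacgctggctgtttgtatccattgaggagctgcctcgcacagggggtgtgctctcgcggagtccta

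In the *Dusp5* promoter, 2 CArG boxes stood end to end, at positions 169 and 179, and the second had the same 10 letters as the box in the distal *Dusp6* region. A CArG box was found in 535 of the 32851 promoters of the RefSeq table (1.63%). Of the 8 member promoters in that table, which cover 7 genes (*Spry4*, *Dusp4* and *Etv4* had none), only that of *Dusp5* held one. None of the 8 held an ETS, Capicua, AP-1, CRE or TEAD match, against 8.05%, 2.47%, 5.20%, 1.79% and 1.35% of all promoters. Such shares give few matches among 8 promoters, so this is not a result about the members. These stretches also differ from the windows around the summits. There, Capicua matches were found in regions within 3 kb of a start site of *Spry1*, *Dusp4*, *Etv4* and *Etv5*. SOX matches were found in promoters of *Spry2*, *Spred2* and *Etv5* (41.2% of all promoters), an E-box in *Etv5* (30.6%) and an NFI match in *Spred2* (14.1%).

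The libraries differed in length and depth. The PROLIF lists held 82741, 66643 and 60006 peaks and the DIFF lists 71308, 70728 and 88039 (replicates 1, 2 and 4). The pileup of reads in the background, solved from the values of each peak, lay between 2.85 and 3.63 reads in 5 libraries and was 6.01 in DIFF replicate 4. Peaks within 3 kb of a start site were present in all 6 libraries at the promoters of all 7 markers of neural stem and progenitor cells. Over all protein-coding genes the share was 64.4%. Of the microglial markers *Ptprc*, *Csf1r*, *Cx3cr1*, *Aif1* and *Tyrobp*, 3 of 5 had a promoter peak in no library and 1 in every library. Among endothelial markers 2 of 4 had none in any library, and *Kdr* had one in all 6 libraries, with percentiles of 54.3 to 75.8. *Pecam1* had a promoter region in all 3 PROLIF libraries and no DIFF library. The part of microglia and endothelial cells in the results was not tested. The fibroblast markers had a promoter peak in all 6 libraries at 2 of 3 genes. Among the stem cell markers, a promoter region of *Nes* was higher in PROLIF, with percentiles of 86.6, 74.5 and 72.9 against 36.3, 32.3 and 65.6 in DIFF (-0.73, SE 0.19, adjusted p = 0.0153), and *Notch1* had 3 promoter regions in all DIFF and no PROLIF library. Over all regions 3.47% had a peak in all DIFF and no PROLIF library, and 1.78% the reverse.

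**Figure D1:**
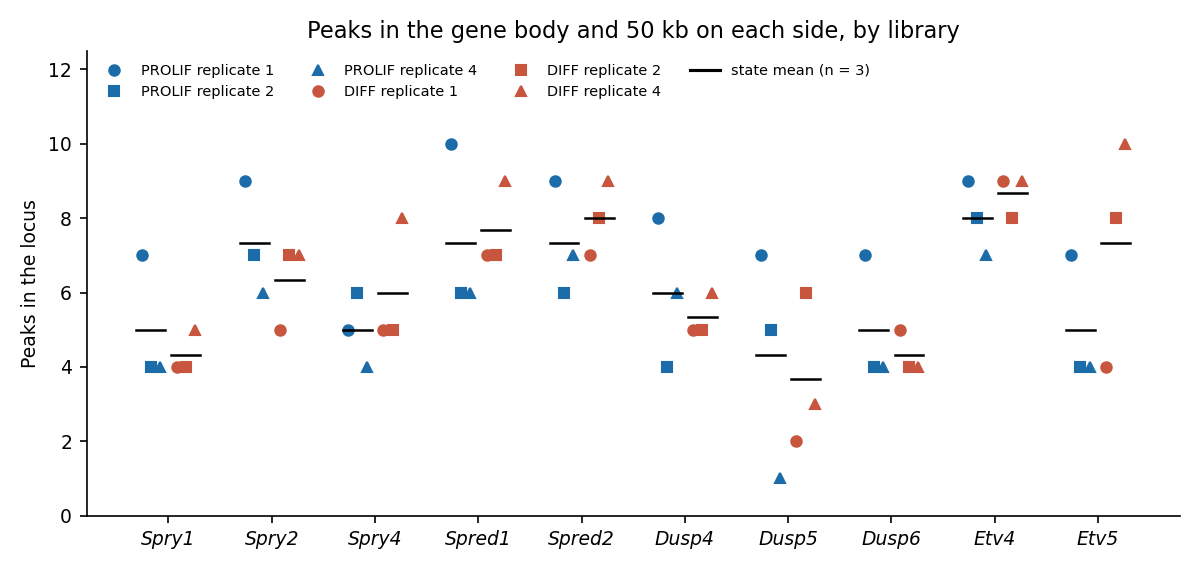
Number of called peaks (y axis) in the locus of each member (x axis), with 1 point per library (PROLIF blue, DIFF red, shape by replicate) and bars at the mean of 3 libraries. The states overlap at every locus, and PROLIF replicate 1 is the highest PROLIF point at 9 of the 10 loci.

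The first comparison asked whether the amount of open chromatin at these loci differed between the states. PROLIF replicates 1, 2 and 4 had 78, 54 and 49 peaks at the 10 loci, and DIFF replicates 1, 2 and 4 had 53, 62 and 70. The states overlapped. As a share of each list this was 0.0857 ± 0.00747% in PROLIF and 0.0805 ± 0.00672% in DIFF (SD, n = 3), a difference smaller than the spread between libraries. The share turned out highest in PROLIF replicate 1, at 0.0943%, and without that library the difference shrank to -0.000845 percentage points from -0.00515.

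Single loci did not separate the states either. *Etv5* had 7, 4 and 4 peaks in PROLIF and 4, 8 and 10 in DIFF, a difference of means of 2.33 peaks (two-sided exact permutation test, p = 0.4). With every list cut to the length of the shortest the *Etv5* difference was -0.333 peaks, and it ran from 1.00 to 4.00 when single libraries were left out, the extremes without DIFF replicate 4 and without DIFF replicate 1. The *Etv4* difference was 2.00 peaks with equal lists. *Spry2*, which restrains RAS activation downstream of FGF receptors, had 9, 7 and 6 peaks in PROLIF and 5, 7 and 7 in DIFF (1 peak fewer in DIFF, exact permutation p = 0.600). *Dusp5* varied widely within each state, with 7, 5 and 1 peaks in PROLIF and 2, 6 and 3 in DIFF (p = 0.900 by the exact permutation test, which for 3 libraries in each state can go no lower than 0.1). At 0 of the 10 loci did all libraries of a state exceed those of the other. Over all protein-coding loci with any peak, all PROLIF libraries exceeded all DIFF libraries at 1.62% and the reverse held at 8.43%.

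The promoters came next. All 10 members had a peak within 3 kb of an annotated start site in all 6 libraries, also when the distance was 1 kb, against 64.4% of protein-coding genes. Each promoter peak was ranked by its −log10 p within its own list, so that 100 is the strongest peak of a library. Such a rank depends on how many weak peaks a list holds, and over all genes it was more often higher in every DIFF library than in every PROLIF library (26.1% and 4.78%), so a shift between states is read against those shares. The mean over the 6 libraries ran from 96.8 at *Spry2* to 71.6 at *Spry1*. The order was *Spry2* (96.8), *Dusp6* (95.8), *Etv5* (95.6), *Dusp5* (91.1), *Dusp4* (85.5), *Spred1* (84.7), *Etv4* (83.8), *Spry4* (76.3), *Spred2* (76.1) and *Spry1* (71.6). Neighbours in this order differed in the same direction in every library at 2 places, *Etv5* over *Dusp5* and *Etv4* over *Spry4* (exact sign-flip test over 6 libraries, both p = 0.0312, the smallest it can give, unadjusted over 9 pairs). *Dusp5* exceeded *Dusp4* in 5 of 6 libraries (exact p = 0.0625), and the other 6 pairs changed places in 2 or 3 libraries. For 3 of these 6 the order was opposite in the states, in every library. *Spred1* exceeded *Dusp4* and *Etv4*, and *Spred2* exceeded *Spry4*, in all 3 PROLIF libraries, and each ranked below them in all 3 DIFF libraries. Some margins were small, such as 87.5 for *Spred1* and 87.0 for *Dusp4* in PROLIF replicate 1. In PROLIF replicate 2, *Spred1* had 82.0 and *Etv4* 81.8. These pairs came from the order in the same data and no share over other gene pairs was counted, so this is not a result about the members.

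**Figure D2:**
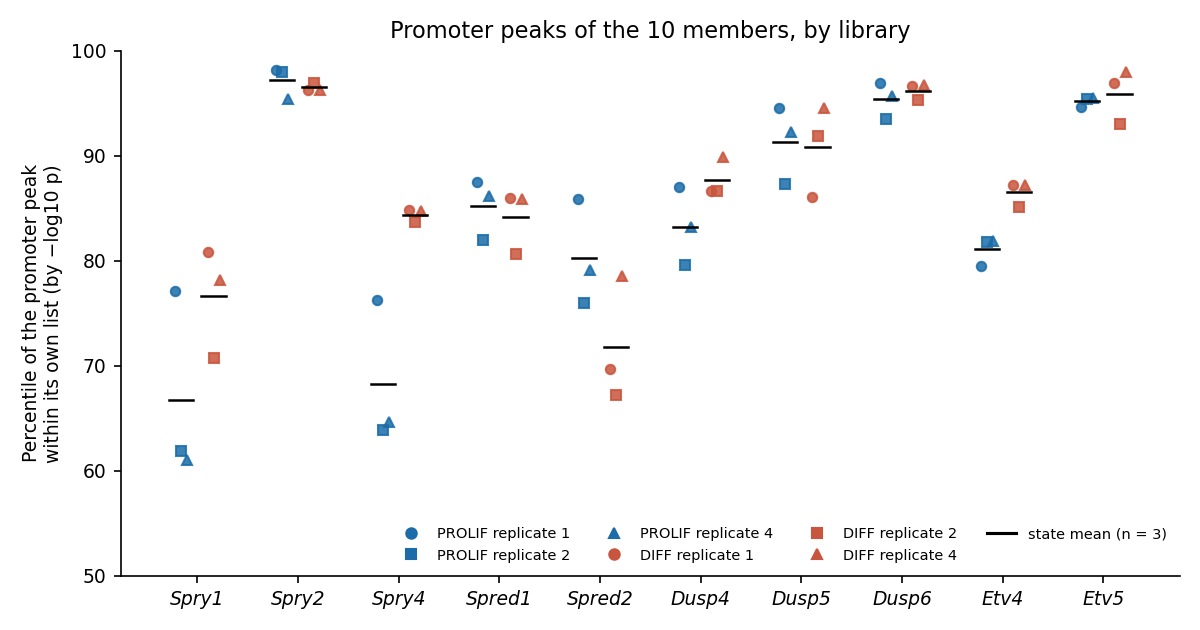
Percentile of each member's promoter peak within its own list by −log10 p (y axis, shown from 50 to 100), with 1 point per library and bars at the mean of 3 libraries. *Spry2*, *Dusp6* and *Etv5* sit at 93.0 or above in all libraries, and the states are apart at *Spry4* and *Etv4*.

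Among the Sprouty genes, *Spry2* (ENSMUSG00000022114.5, chromosome 14 from 105891947 to 105896819, minus strand) had the strongest promoter peak. Its percentiles were 98.2, 98.0 and 95.4 in PROLIF and 96.3, 96.9 and 96.3 in DIFF, with fold enrichments over local background between 7.64 and 9.29. The states overlapped and the peak was about as wide in each library, from 1018 to 1079 bp. Its summit lay in the region from 105896969 to 105898048, upstream of the start. At *Spry1* (ENSMUSG00000037211.12, chromosome 3 from 37639947 to 37644598) the percentiles were lower and more spread, at 77.1, 61.9 and 61.0 in PROLIF and 80.8, 70.7 and 78.2 in DIFF (9.89 higher in DIFF, exact permutation p = 0.200).

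The *Spry4* promoter (ENSMUSG00000024427.7, chromosome 18 from 38586247 to 38601415, minus strand) was among those whose ranks did not overlap. Its percentiles were 76.3, 63.9 and 64.6 in PROLIF and 84.8, 83.7 and 84.7 in DIFF. Every DIFF library exceeded every PROLIF library, by 16.1 on average (two-sided exact permutation test, p = 0.1). At the solved summit the peaks held 70, 49 and 43 reads in PROLIF and 73, 78 and 108 in DIFF.

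The Spred proteins are membrane-bound relatives of Sprouty that block RAF activation. At the *Spred1* promoter (ENSMUSG00000027351.14, chromosome 2 from 117121374 to 117182279) percentiles were 87.5, 82.0 and 86.2 in PROLIF and 86.0, 80.6 and 85.9 in DIFF. At *Spred2* (ENSMUSG00000045671.17, chromosome 11 from 19924375 to 20024026) they were 85.9, 76.0 and 79.1 in PROLIF and 69.7, 67.2 and 78.5 in DIFF (-8.50, or -13.0 with lists of equal length, exact permutation p = 0.200). Both overlapped between states.

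Of the phosphatases, DUSP6 acts on ERK in the cytoplasm and DUSP5 on ERK in the nucleus, while DUSP4 is nuclear and acts on other MAP kinases too. The *Dusp6* promoter (ENSMUSG00000019960.8, chromosome 10 from 99263231 to 99267489) ranked at 96.9, 93.5 and 95.7 in PROLIF and 96.6, 95.3 and 96.7 in DIFF. *Dusp5* (ENSMUSG00000034765.6, chromosome 19 from 53529109 to 53542431) ranked at 94.5, 87.3 and 92.3 in PROLIF and 86.1, 91.9 and 94.5 in DIFF. *Dusp4* (ENSMUSG00000031530.6, chromosome 8 from 34807297 to 34819894) ranked at 87.0, 79.6 and 83.2 in PROLIF and 86.6, 86.6 and 89.9 in DIFF. All overlapped between states, with exact permutation p of 0.7, 0.8 and 0.3.

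For the ETS factors, *Etv5* (ENSMUSG00000013089.15, chromosome 16 from 22381309 to 22439719, minus strand) ranked at 94.6, 95.4 and 95.5 in PROLIF and 96.9, 93.0 and 98.0 in DIFF. *Etv4* (ENSMUSG00000017724.14, chromosome 11 from 101769742 to 101785371, minus strand) ranked at 79.5, 81.8 and 81.9 in PROLIF and 87.2, 85.1 and 87.2 in DIFF. At *Etv4* every DIFF library was above every PROLIF library, by 5.45 on average (exact permutation test, p = 0.1). So 2 of the 10 promoters, *Spry4* and *Etv4*, ranked higher in all DIFF libraries and 0 in all PROLIF libraries. Over the 14139 protein-coding genes with a promoter peak in all 6 libraries these were 26.1% and 4.78%, so the count is near the background and is not a result about the members.

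Occupancy was then compared over all regions of the loci. Of the 96 regions, 37 (38.5%) had a peak in all 6 libraries, against 33.4% of all regions. A peak in a single library was seen at 29 (30.2%, against 29.7%), and 17 of these came from PROLIF replicate 1. Summits of 52 regions were intergenic, 36 lay in introns and 8 in exons or UTRs. The nearest protein-coding start site was that of a member for 79 regions and of another gene for 17, such as *Dhx8* next to *Etv4* and *Tnks* next to *Dusp4*.

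No region at the 10 loci had a peak in all PROLIF and no DIFF library, where 1.78% of all regions did. Just 1 of 96 (1.04%) showed the reverse, against 3.47%. It lay on chromosome 18 from 38634940 to 38635217, 33.6 kb upstream of *Spry4* in an intron of *AC133601.1*. Its DIFF percentiles of 27.5, 4.29 and 41.5 were low, and it was absent from the DIFF-only regions when lists were cut to equal length. A peak in 1 or more PROLIF and no DIFF library was seen at 21 of the 96 regions, 17 of them in PROLIF replicate 1 alone. The reverse was seen at 18. Over all regions these shares were 18.7% and 23.5%, so the counts are not read as a result about the members. A peak in all PROLIF but fewer than 3 DIFF libraries was seen at 4 regions (4.17%, against 6.05% of all regions), and the reverse at 6 (6.25%, against 11.8%).

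**Figure D3:**
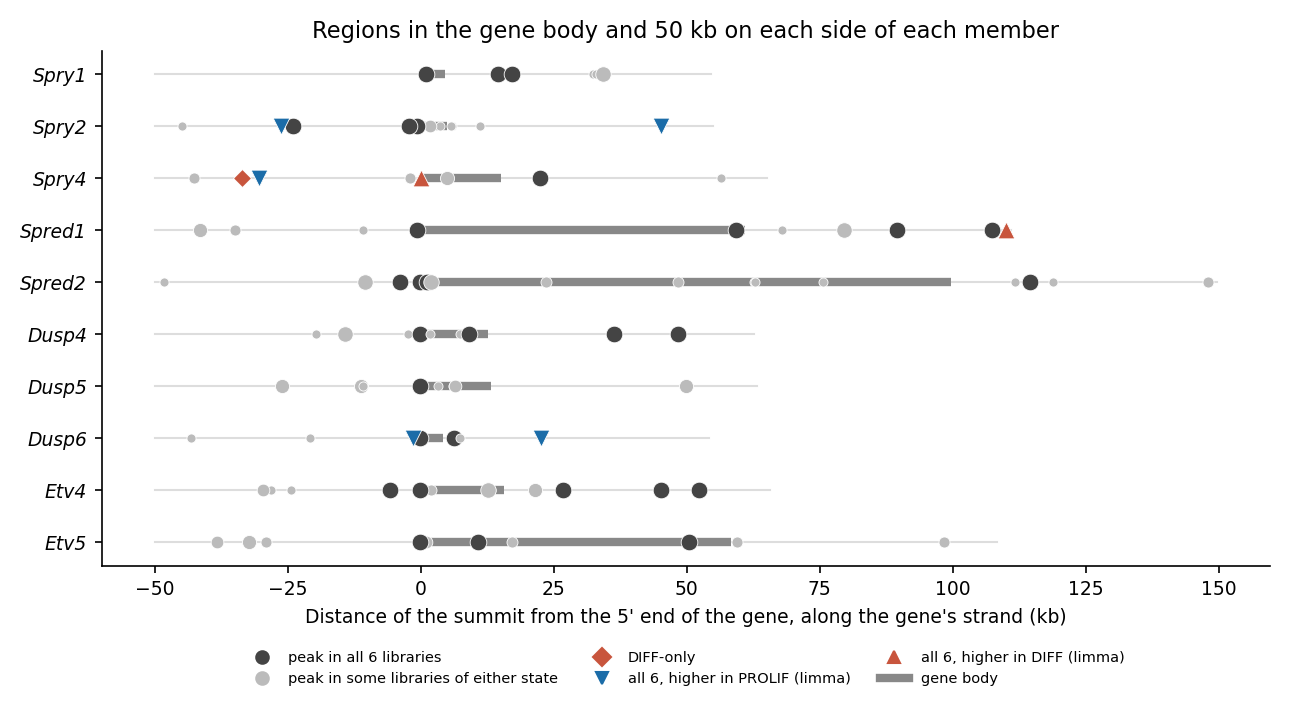
Position of the 96 regions: distance of the summit from the 5′ end of the gene along its strand in kb (x axis) for each member (y axis), with larger points for regions found in more libraries. Regions that differed by limma are triangles (blue, higher in PROLIF, red, higher in DIFF) and the DIFF-only region is a diamond. 4 of the 5 blue triangles lie over 20 kb from the 5′ end of the gene.

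To ask whether strength changed where presence did not, the log2 fold enrichment of each region's strongest peak was quantile-normalized and compared by limma over all 40164 regions with a peak in all 6 libraries, with Benjamini-Hochberg adjustment over all of them. At the 10 loci, 5 of 37 regions (13.5%) were higher in PROLIF at an adjusted p under 0.05, against 8.86% of all shared regions, and 2 (5.41%) were higher in DIFF, against 6.89%. The median difference, DIFF minus PROLIF, was 0.04 over the 37 regions and 0.027 over all. At least 1 region higher in PROLIF was found at 3 of the 10 loci, against 19.7% of protein-coding loci, and at least 1 higher in DIFF at 2, against 21.1%. Of the 13 shared regions within 3 kb of a member's start site, 1 was higher in PROLIF and 1 in DIFF, where 4.51% and 4.82% of all shared regions within 3 kb of any start site were. Of the 24 others, 4 were higher in PROLIF and 1 in DIFF, where 12.7% and 8.72% of all shared regions farther away were.

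**Figure D4:**
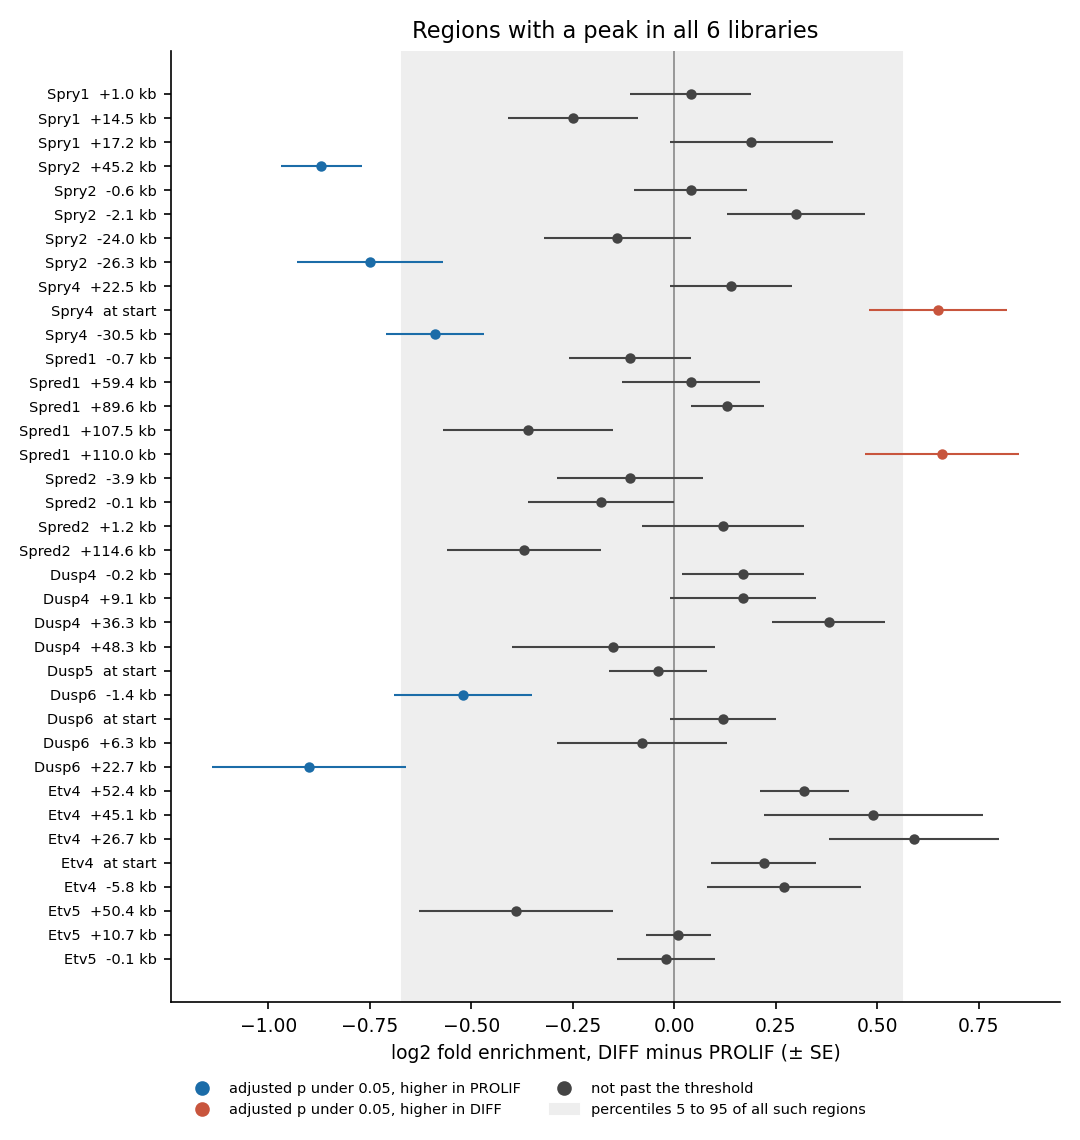
Difference in log2 fold enrichment, DIFF minus PROLIF, with its SE (x axis) for the 37 regions with a peak in all 6 libraries (y axis: gene and distance of the summit from its 5′ end), beside percentiles 5 to 95 of all such regions in grey (-0.67 to 0.56). Most regions lie around 0, and the 5 regions in blue and 2 in red passed the threshold.

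The clearest difference was downstream of *Spry2*. The region on chromosome 14 from 105851116 to 105852016 is intergenic and lies 45.2 kb from the 5′ end of the gene (its sequence is the first shown). Its percentiles were 96.5, 95.5 and 93.3 in PROLIF and 73.5, 71.8 and 75.3 in DIFF. The fold enrichment was 18.7, 15.7 and 14.8 in PROLIF and 8.42, 9.86 and 8.13 in DIFF. The groups were far apart, and the peak was wider in PROLIF, at 820, 901 and 726 bp, than in DIFF, at 491, 503 and 640 bp. On the log2 scale it fell by 0.87 (SE 0.10, adjusted p = 1.53e-05), a 1.83-fold higher enrichment in PROLIF. In PROLIF it ranked close to the *Spry2* promoter itself, whose own log2 difference was 0.04 (SE 0.14, adjusted p = 0.890).

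A second *Spry2* region, on chromosome 14 from 105922444 to 105923389, lay 26.3 kb upstream in intergenic DNA. Its percentiles were 64.8, 45.3 and 53.5 in PROLIF and 2.96, 4.69 and 21.8 in DIFF, so in DIFF it was among the weakest peaks called. Fold enrichment went from 6.27, 4.41 and 5.35 to 2.81, 3.08 and 2.97, without overlap. It fell by 0.75 on the log2 scale (SE 0.18, adjusted p = 0.00666). The region next to it, 24.0 kb upstream, ranked at 62.7, 59.0 and 45.8 in PROLIF and 33.7, 46.0 and 51.6 in DIFF and did not pass (-0.14, SE 0.18, adjusted p = 0.668). The decrease was thus seen at 1 of these neighbours and not shown at the other, and the difference between them was not tested.

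At *Spry4*, 2 regions differed in opposite directions. The region on chromosome 18 from 38631356 to 38632247, 30.5 kb upstream in an intron of *AC133601.1*, had percentiles of 93.1, 88.3 and 88.2 in PROLIF and 74.1, 71.3 and 74.3 in DIFF. Its fold enrichment was 14.5, 11.2 and 10.8 in PROLIF and 7.63, 8.61 and 7.11 in DIFF, again without overlap (-0.59, SE 0.12, adjusted p = 0.00193). The promoter region from 38600737 to 38602820 went the other way, with fold enrichments of 6.80, 4.91 and 5.10 in PROLIF and 8.45, 8.88 and 7.63 in DIFF (0.65, SE 0.17, adjusted p = 0.0117). Its peaks covered 1744, 1399 and 903 bp in PROLIF and 653, 1021 and 1101 bp in DIFF, so the width overlapped and showed no such rise. A weak region beside it, from 38603124 to 38603510, had a peak in 2 PROLIF and 0 DIFF libraries. The promoter call was lost without DIFF replicate 1 (adjusted p = 0.0576). The third shared region of the locus, 22.5 kb downstream, did not pass (0.14, SE 0.15, adjusted p = 0.599).

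At *Dusp6*, 2 regions were higher in PROLIF while the promoter peak between them was about equal. The distal one, on chromosome 10 from 99285686 to 99286119, is intergenic, 22.7 kb downstream, and holds the CArG box shown above. Its fold enrichment was 12.3, 9.14 and 5.20 in PROLIF and 4.75, 5.56 and 2.85 in DIFF. On this raw scale the lowest PROLIF library and the highest DIFF library overlapped, whereas after normalization the groups were apart (-0.90, SE 0.24, adjusted p = 0.0150, 1.87-fold). Leaving out PROLIF replicate 1 or 2 or DIFF replicate 4 ended the call (adjusted p = 0.0744, 0.0618 and 0.0916).

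The other, from 99261254 to 99262330, ends 0.901 kb from the start site and touches no part of the gene. It had fold enrichments of 4.72, 4.88 and 4.16 in PROLIF and 3.14, 2.85 and 3.05 in DIFF, without overlap (-0.52, SE 0.17, adjusted p = 0.0460). Its call was lost in 5 of the 6 fits that each left out a library, every one except that without PROLIF replicate 1, with adjusted p up to 0.242, and it held in 5 of 12 alternative analyses, the lowest share among the 7. The promoter peak itself, from 99262504 to 99263829, differed by 0.12 (SE 0.13, adjusted p = 0.620). Replicate 1 held 1.16 and 1.14 times the share of peaks of the other replicates in the 1 Mb of chromosome 10 around *Dusp6*, in PROLIF and DIFF.

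The region higher in DIFF near *Spred1* lay on chromosome 2 from 117231306 to 117231560, 110 kb downstream of the gene's 5′ end and 18.2 kb from the start of *Fam98b*, the nearest protein-coding one. Fold enrichments were 4.63, 3.26 and 3.61 in PROLIF and 6.17, 5.56 and 4.89 in DIFF, and its percentiles of 45.6, 11.9 and 22.6 in PROLIF and 60.1, 44.2 and 56.1 in DIFF overlapped (0.66, SE 0.19, adjusted p = 0.0229). Without PROLIF replicate 2, PROLIF replicate 4 or DIFF replicate 1 it did not pass (adjusted p = 0.103, 0.0571 and 0.0872). The strongest shared region of the *Spred1* locus, 89.6 kb downstream, ranked between 89.0 and 93.8 in all libraries (0.13, SE 0.09, adjusted p = 0.363).

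**Figure D5:**
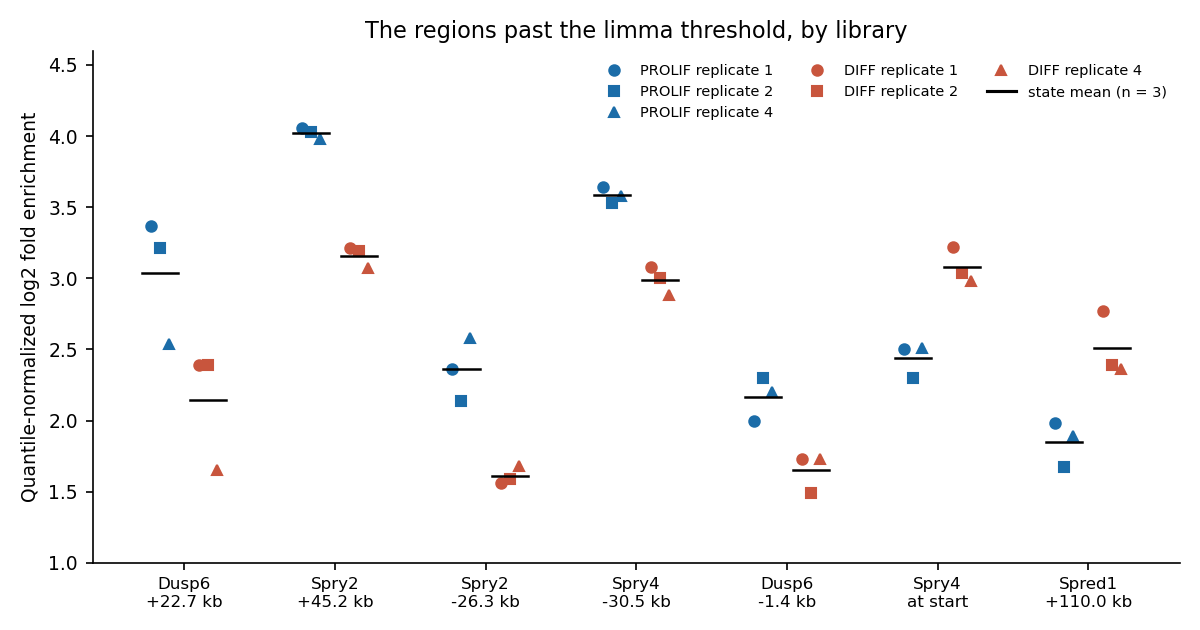
Quantile-normalized log2 fold enrichment (y axis) of the 7 regions past the limma threshold (x axis: gene and distance of the summit from its 5′ end), with 1 point per library and bars at the mean of 3 libraries. The states are apart at all 7, and *Spry2* 45.2 kb downstream shows the least spread within a state.

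The remaining 30 shared regions did not pass. The promoter regions of *Spry1*, *Spred1*, *Spred2*, *Dusp4* and *Dusp5* differed by 0.04 (SE 0.15), -0.11 (SE 0.15), -0.18 (SE 0.18), 0.17 (SE 0.15) and -0.04 (SE 0.12), with adjusted p from 0.519 to 0.903. The *Etv4* promoter, whose percentiles did not overlap, differed by 0.22 in fold enrichment (SE 0.13, adjusted p = 0.279), and that of *Etv5* by -0.02 (SE 0.12, adjusted p = 0.932). Nearest to the threshold were 2 regions of the *Etv4* locus that lie in *Dhx8*, at the *Dhx8* start (0.32, SE 0.11, adjusted p = 0.0538) and in an intron (0.59, SE 0.21, adjusted p = 0.0604), and 1 at *Dusp4* in an intron of *Tnks* (0.38, SE 0.14, adjusted p = 0.0729). These were chosen after their values were seen. An intron of *Etv5*, on chromosome 16 from 22428610 to 22429631, held a peak as strong as the promoter, with percentiles of 96.9, 96.0 and 96.2 in PROLIF and 97.7, 97.3 and 98.4 in DIFF. The DIFF percentiles were all higher, while the difference in fold enrichment was close to 0 (0.01, SE 0.08, adjusted p = 0.963).

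Motif matches were counted within 100 bp of the summit of each region's best-ranked peak. Capicua matches were found in 8 of the 96 regions (8.33%), against 2.84% of all regions. The 8 were the main promoter regions of *Spry1*, *Dusp4* and *Etv4*, 1 further region each of *Dusp6* and *Etv4*, and 3 of *Etv5*, the strong intronic region among them. The further *Etv4* region and another *Etv5* region also lay near a start site of their gene, at 0.0780 and 0.881 kb. Of the 37 shared regions 5 held one (13.5%, against 2.63%), and none of the 7 that differed did. Within 50 bp of the summit 3 of 96 held one (3.12%, against 1.46%). AP-1 matches were found in 6 regions (6.25%, against 5.76%), ETS in 4 (4.17%, against 3.64%), CArG boxes in 3 (3.12%, against 1.08%), TEAD in 1 (1.04%, against 1.54%) and CRE in 0 (against 0.672%). SOX (37.5%, against 39.1%), E-box (34.4%, against 33.4%) and NFI (16.7%, against 18.3%) were about as frequent as elsewhere. The shares carry no test, and none of the 5 regions higher in PROLIF held an AP-1 match, a motif found in 16.4% of all shared regions higher in PROLIF. Such shares give few matches among so few regions. Neither this absence nor that of Capicua matches among the 7 regions that differed is a result about the members.

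Other genes of the pathway were read by the same measures. Of 12 further feedback genes, including *Spred3*, *Dusp7*, *Il17rd* and *Errfi1*, 11 had a promoter peak in all 6 libraries, against 64.4% of protein-coding genes. Of their main promoter regions, 0 of 11 passed limma in either direction. Of all shared regions within 3 kb of a start site, 4.51% were higher in PROLIF and 4.82% in DIFF. A weak promoter region of *Il17rd*, which encodes the FGF receptor antagonist SEF, was PROLIF-only, with percentiles of 47.1, 25.0 and 20.4. One of *Dusp7*, a cytoplasmic ERK phosphatase, was DIFF-only, at 7.66, 29.2 and 38.6. Over all regions 1.78% were PROLIF-only and 3.47% DIFF-only. Of 5 phosphatases that act mostly on stress kinases, a promoter region of *Dusp1* was higher in DIFF, at 74.2, 64.5 and 73.1 in PROLIF and 86.2, 84.9 and 87.5 in DIFF (0.43, SE 0.12, adjusted p = 0.0178). The main promoter region of *Dusp1* was another one and did not pass (0.20, SE 0.17, adjusted p = 0.488).

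All 26 genes of the cascade from receptor to ERK had a promoter peak in every library, against 64.4% of protein-coding genes. The main promoter regions of *Map2k1*, which encodes the ERK kinase MEK1 (0.44, SE 0.10, adjusted p = 0.00413), and of *Nras* (0.42, SE 0.13, adjusted p = 0.0297) were higher in DIFF. A promoter region of *Gab1*, an adaptor of growth factor receptors, was higher in PROLIF, with percentiles of 93.4, 89.0 and 90.9 against 66.5, 74.1 and 75.0 (-0.68, SE 0.12, adjusted p = 0.000593). The main promoter region of *Gab1* was another one and did not pass (0.04, SE 0.10, adjusted p = 0.844). *Map2k1* and *Egfr* each also had a DIFF-only promoter region. Given the shares over all regions, the few called or state-only promoter regions are not a result about these lists. The median difference of the main promoter region was 0.04 over the 10 members, 0.09 over the further feedback genes, 0.06 over the stress phosphatases and 0.07 over the cascade, and 0.05 over all shared regions within 3 kb of a start site.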

How the data were processed

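ATAC-seq libraries of proliferating (PROLIF) and early differentiating (DIFF) *Srr2* del/del SEZ cultures, 3 per state, were compared from their deposited peak lists. Reads had been trimmed by the authors (Cutadapt, Trimmomatic) and placed on GRCm38 (mm10) by Bowtie2, with duplicates marked by Picard MarkDuplicates. MACS2, run on each library without its shifting model, gave the narrow peaks at a false discovery rate of 0.05. Versions are not given in the sources used here. Each deposited list gives a score (the whole part of 10 times −log10 q), the fold enrichment of the summit over local background, and −log10 p and −log10 q values, all as the authors' peak caller wrote them. The lists give no read totals, so depth was judged from the reads at the summit and in the background that each peak's fold enrichment and p-value imply together under a Poisson model. Fold enrichment is relative to each library's own local background, so a change in background moves it too.

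Peaks overlapping by at least 1 bp were merged across libraries into regions. Those of a locus were the regions overlapping the gene body plus 50 kb, and a promoter peak was within 3 kb of an annotated start site. Percentiles ranked −log10 p within a list. Log2 fold enrichment of the strongest peak was quantile-normalized and fitted by limma 3.58.1 (R 4.3.3) over all 40164 regions shared by 6 libraries, without a replicate block and with Benjamini-Hochberg adjustment. The fit was tested on simulated data with 50 regions changed at each of 4 sizes. It called 40 of 50 at a log2 change of -1.5, 23 at -1, 1 at -0.5 and 8 at 0.5. Of 39964 unchanged regions it called 1. Changes of 0.5 in size were thus mostly missed there. Far fewer regions were changed in the simulation than the 3558 (PROLIF) and 2768 (DIFF) that passed in the real fit. The adjusted threshold was therefore stricter in the simulation, and its rates are not those of the real fit. A region that did not pass is still not shown to be unchanged. P-values rest on the spread between these libraries. In limma each region's variance was also drawn toward a trend fitted over all shared regions (empirical Bayes), so its p-values do not rest on that region alone. The paper describes paired profiling of the same cultures in both conditions. That wording may tie ATAC-seq to RNA-seq or PROLIF to DIFF, and no source used here says what a replicate number shares between the states. Same-numbered libraries were therefore not taken as pairs in the main fit, and a replicate block is given as an alternative.

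Members and gene lists were chosen with earlier results of these data known. All members, their promoters, every state-only region and every region past the limma threshold were named, and of the other lists genes with such a promoter region. *Spry3* was not analysed here. Sequences came from RefSeq promoters and the genome of GRCm38.p6, and 7 of 10 members matched the promoter table. Python 3.11.15, pandas 2.3.3, scipy 1.17.1, pysam 0.24.0 and samtools 1.23.1 were used.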

Additional observations from a re-analysis of the deposited data

How the results depend on the processing

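Of 96 regions, 37 were in all 6 libraries. With the 20000 strongest peaks there were 10, with a cover of at least 50% 22, within 10 kb 22 and within 100 kb 64. PROLIF-only regions, 0 in the report, numbered 2 with lists of equal length (3.30% of all regions), 1 with the 50% cover (2.37%), 1 within 100 kb, and 0 to 2 with each library left out (2 without PROLIF replicate 4, 3.57% of all, 1 without DIFF replicate 4, 2.95%). DIFF-only regions, 1 in the report, numbered 0 at q of at most 0.001 (3.90% of all), with equal lists (3.92%), with the 20000 strongest peaks (4.62%), with the 50% cover (3.61%) and within 10 kb, and 1 to 5 with each library left out (5 without DIFF replicate 1, 5.96% of all, 3 without PROLIF replicate 1, 6.39%, or DIFF replicate 2, 5.28%, 2 without DIFF replicate 4, 4.27%). Shared regions higher in PROLIF, 5 in the report, numbered 3 with the logit of the percentile (6.17% of all shared), 3 with the 50% cover (5.97%), 2 above the median fold (8.27%), and 3 to 4 with each library left out. Those higher in DIFF, 2 in the report, numbered 0 with the 50% cover (3.47%), 0 above the median fold (6.10%), and 0 to 2 with each library left out (0 without DIFF replicate 1, 4.85%). The 50% cover and the median fold leave 22 and 14 of the 37 to test. Over all shared regions they gave 1232 and 1660 higher in PROLIF and 717 and 1226 in DIFF, against 3558 and 2768, and without DIFF replicate 2 or 4, 1759 and 1592 were higher in DIFF. Same-numbered libraries deviated together at r = 0.0732, 0.122 and 0.105, others at -0.0922 to -0.00337 (40164 regions). Each thus correlated best with its own number, which hints at pairing but does not settle it. With replicate number as a block, limma gave 5 regions higher in PROLIF and 3 in DIFF, against 10.1% and 8.31% of all shared regions. A count over same-numbered pairs, which also relaxed the rule to 2 of 3 pairs and none opposite, gave 3 PROLIF-only (6.29% of all) and 10 DIFF-only regions (11.1%). Within 50 bp of the summit, motif shares were 1.04% for ETS (2.06% of all regions), 3.12% for Capicua (1.46%), 18.8% for SOX (23.1%), 19.8% for E-box (20.6%) and 8.33% for NFI (11.0%). With the 20000 strongest peaks or the 50% cover, 7 of 10 members had a promoter peak in all 6 libraries. None of the 7 called regions changed sign in any alternative run (81 values). Of differences that did not pass a test, 16 of 100 values of peaks per locus, 6 of 110 promoter percentiles and 13 of 137 region values did. The 7 had been picked by passing in these same libraries, so a kept sign was largely fixed in advance and adds no support. The *Spry2* region 45.2 kb downstream and the *Spry4* region 30.5 kb upstream passed in 13 of 13 alternatives, and that 26.3 kb upstream of *Spry2* in all 10 in which it could be fitted. The cause of the other changes was not tested.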
